A study of Mus musculus with 42 samples.

Results

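ATP-binding cassette (ABC) transporter genes were followed in the liver of mice that differed in diet, in the receptor ChemR23 and in treatment with resolvin E1 (RvE1). The members were all GeneIDs of the KO obese vs KO lean table whose name begins with Abca, Abcb, Abcc, Abcd, Abce, Abcf or Abcg and a digit, which gave 42 of 15162 GeneIDs. By the known role of their products they were ordered in groups of genes. These were 8 of canalicular export, 7 of sinusoidal and other Abcc efflux, 5 of the Abca6-like cluster and 6 of sterol and phospholipid transport. The rest were 3 peroxisomal, 6 mitochondrial and lysosomal, 4 cytosolic, 1 sulfonylurea receptor and 2 others.

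Male mice on a C57BL/6J background were either WT littermates or lacked ChemR23 after CRISPR/Cas9 editing (KO). ChemR23, encoded by Cmklr1, is a receptor for RvE1, a lipid mediator derived from eicosapentaenoic acid. From 6 weeks of age and for 15 weeks, lean groups ate a diet with 10% and obese groups a diet with 60% of kcal from fat. All mice were injected intraperitoneally on 4 days, with 300 ng RvE1 in the groups WT obese+RvE1 and KO obese+RvE1 and with ethanol in PBS as vehicle in WT lean, WT obese, KO lean and KO obese, and livers were taken on day 5 after fasting. Each of the 6 groups held 7 mice, with 1 bulk RNA-seq library of whole liver per mouse. In such libraries fewer cells of a type and less RNA per cell cannot be told apart.

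Libraries held 16024240 to 43913025 reads on listed genes, with a median of 24320091. Cmklr1 was at 40.8 to 114 normalized counts in WT lean and 9.72 to 22.6 in KO lean, so reads on the edited gene were fewer but not absent. All 6 hepatocyte markers checked, Alb and Ttr among them, were listed in every table. The normalized count is the number of reads on a gene divided by a size factor of the library, and the size factors were set within each table of 14 libraries. For this reason groups were compared within a table only.

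ABC transporters couple the hydrolysis of ATP to the movement of lipids, bile constituents, peptides or drugs across a membrane. In hepatocytes, exporters of the canalicular membrane deliver bile salts, phosphatidylcholine, sterols and conjugates to bile, whereas exporters of the sinusoidal membrane return conjugates to blood. Other members serve peroxisomes, mitochondria and lysosomes, and the Abce and Abcf proteins have no membrane domain and act in translation.

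Per kilobase (kb) of merged exons, Abcd3 and Abcb11 were the highest members in lean WT liver. Merged exons take in all annotated transcripts and can be longer than the longest one (Abcb4 9383 against 4079 bases, Abcc2 8532 against 8027). The order of the members therefore depends on the length used. Abcd3, which brings branched fatty acids and bile acid intermediates into peroxisomes, had 1671 ± 387 normalized counts per kb (SD, n = 7). Abcb11, the bile salt export pump, had 1648 ± 336 per kb, so the ranges of these 2 genes overlapped. Abcc2, the canalicular exporter of bilirubin glucuronides and other conjugates, followed at 932 ± 189 per kb. Abca1, which loads cholesterol onto apolipoprotein A-I, was next at 658 ± 102 per kb and the sterol transporters Abcg5 and Abcg8 were at 636 ± 97.1 and 607 ± 154 per kb, and these 3 ranges overlapped.

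At the low end, Abcb1a and Abcb1b, which encode the drug exporters known as P-glycoproteins, had 7.12 ± 2.59 and 4.94 ± 0.717 normalized counts per kb in WT lean liver. Abca14, Abcc12 and Abca4, a gene known from the retina, stayed below 1 on average, at 0.699, 0.368 and 0.291 per kb. Abca4 and Abcc12 fell under the minimum mean of 5 normalized counts in the diet tables, so 40 of the 42 members were tested there. In WT obese liver Abcc3 stood at place 8 of the members by this level, against place 14 in WT lean.

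**Figure D1:**
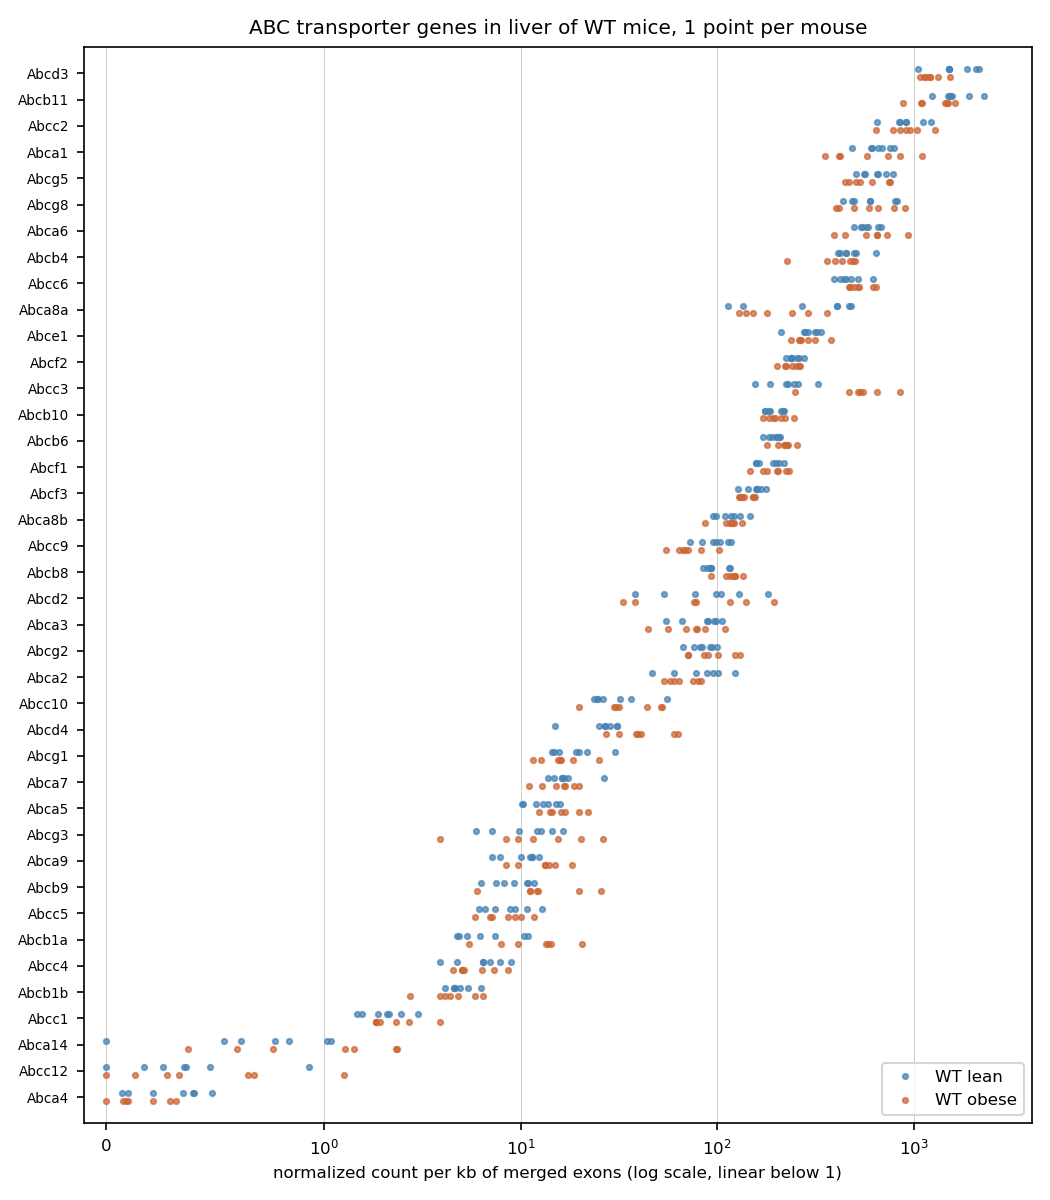
Normalized count per kb of merged exons (log scale, linear below 1) of 40 of the 42 members in WT mice, with 1 point per mouse for WT lean (blue) and WT obese (orange) and genes ordered by the WT lean mean. Abcd3 and Abcb11 lie highest, Abca14, Abcc12 and Abca4 lowest, and the orange points of Abcc3 lie mostly to the right of its blue ones.

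Members also differed in how much they varied between mice of a group. The coefficient of variation was taken in each group that listed the gene, and its median over the groups was lowest for Abcf2 (9.77%), Abcb6 (9.88%) and Abcf3 (10.2%). Apart from the sparsely read Abca4, Abca14 and Abcc12, it was highest for Abcd2 (47.0%), a peroxisomal importer of very long chain fatty acids, and Abca8a (38.6%), a lipid transporter of the Abca6-like cluster.

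WT obese and WT lean liver were compared to see which members changed with diet when ChemR23 was present. A member was called when its p-value, adjusted by Benjamini-Hochberg (BH), lay under 0.1, and a fold change above 1.5 was noted separately. Of 40 members tested, 2 were higher in WT obese, Abcc3 and Abcd4, and 0 were lower. Both also passed the fold change. Over all 14012 genes, 3.65% were called higher and 2.61% lower, and with the fold change 2.26% and 1.53%. The members' median log2 fold change was -0.01, against 0.00 over all genes. For lower members limma gave 3 with an unadjusted p under 0.05 (Abcb11, Abcc9 and Abcd3), edgeR called 0, and DESeq2 called 2 (Abcc9 and Abcd3), or 5.00% of the members against 4.35% of all genes. In either direction 8 members (20.0%) had an unadjusted p under 0.05, against 18.2% of all genes.

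KO obese and KO lean liver were compared to see the same without the receptor. Here 10 of 40 members were higher in KO obese and 0 were lower, while 12.0% of all 14213 genes were called higher and 12.1% lower. The 10 were Abcc3, Abcb1a, Abcc2, Abcg2, Abca5, Abca6, Abca8b, Abcc6, Abcc10 and Abcf1. With the fold change above 1.5, 4 members remained (10.0%), Abcc3, Abcb1a, Abca5 and Abcc2, against 4.97% of all genes higher and 5.42% lower. The members' median log2 fold change was 0.19 and that of all genes 0.00. Of the 40 members, 28 had a positive and 12 a negative value. No lower member had an unadjusted p under 0.05 in limma, edgeR or DESeq2 (0 in each).

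Abcc3, known as MRP3, exports glucuronides and bile acids across the sinusoidal membrane and had the largest log2 fold change of the members in both diet comparisons. In WT lean it was at 891 (lowest), 1306 (median) and 1859 (highest) normalized counts, and in WT obese at 1422, 3022 and 4862. Of the 7 WT obese mice 6 lay above every WT lean mouse, and the groups overlapped through the remaining mouse. The log2 fold change was 1.19 ± 0.22 (SE), a 2.28-fold difference, with an adjusted p of 0.00594.

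In the KO table Abcc3 was at 683, 1009 and 2157 normalized counts in KO lean and at 1784, 4347 and 6544 in KO obese. Again 6 of 7 obese mice lay above every lean mouse and 1 lay within the lean range. The log2 fold change was 1.77 ± 0.31, or 3.40-fold, with an adjusted p of 0.00383. The difference between the diet effects in KO and WT was 0.57 on the log2 scale (95% interval -0.24 to 1.39, adjusted p = 0.464), so a difference in the diet effect was not shown. Both calls held under all 10 alternative settings and without any single mouse.

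**Figure D2:**
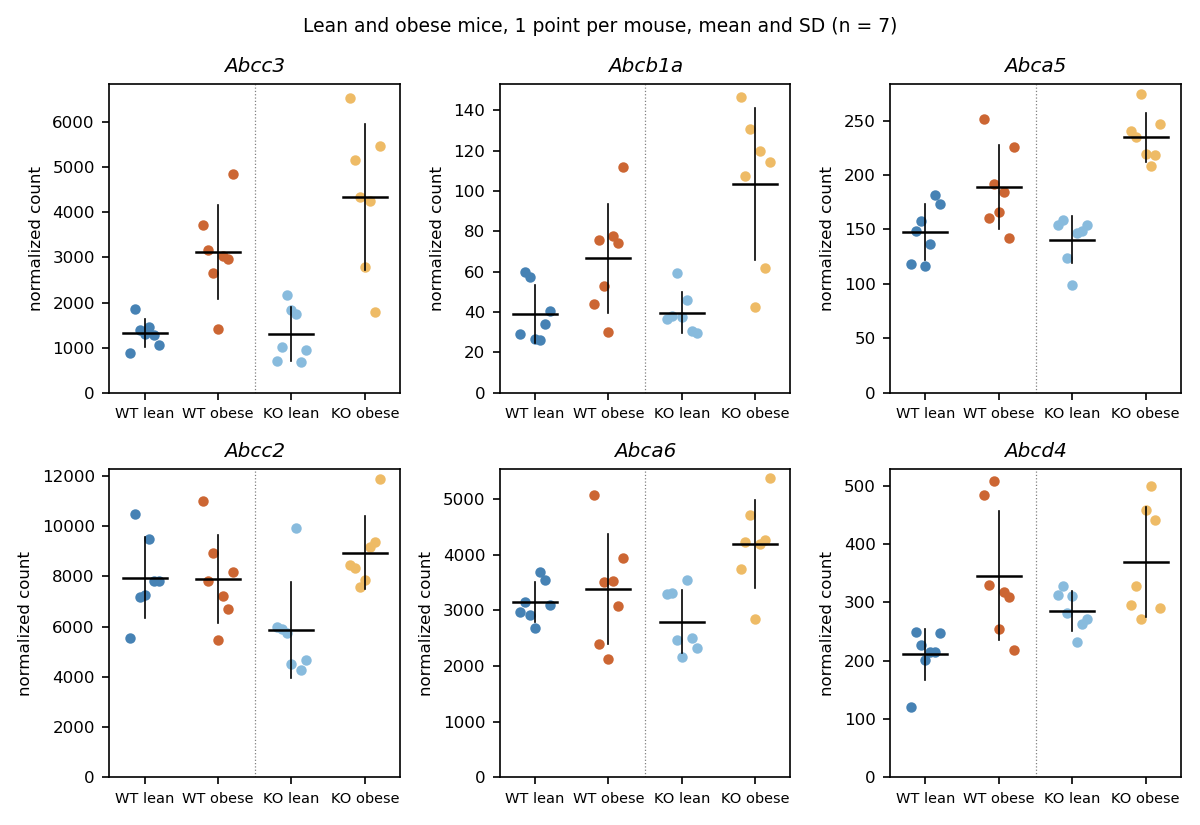
Normalized counts of Abcc3, Abcb1a, Abca5, Abcc2, Abca6 and Abcd4 in WT lean, WT obese, KO lean and KO obese mice, with 1 point per mouse and the mean and SD (n = 7); the dotted line separates tables with their own size factors. Abca5 in the KO mice is the panel pair without overlap, with lean mice up to 158.5 and obese mice from 208.4 normalized counts.

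Of the canalicular exporters, 3 of 8 were higher in KO obese, against 12.0% of all genes, and none passed in WT obese, against 3.65% higher and 2.61% lower of all genes (0 of 8, with Abcb11 and Abcb1a at an unadjusted p under 0.05 and Abcb1a called by DESeq2). Abcb1a was at 29.6, 37.8 and 59.5 normalized counts in KO lean and at 42.3, 114.5 and 146.7 in KO obese, with 6 of 7 obese mice above the lean range. Its log2 fold change was 1.29 ± 0.25 with an adjusted p of 0.00637. In WT mice it was at 26.1, 34.0 and 59.8 in lean and 30.0, 74.1 and 112.1 in obese liver, with 4 of 7 obese mice above the lean range (log2 fold change 0.72 ± 0.28, adjusted p = 0.168).

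Its neighbour Abcb1b on chromosome 5 was at 22.7 to 58.3 normalized counts in KO lean and 20.6 to 41.7 in KO obese (log2 fold change -0.46 ± 0.24, adjusted p = 0.199). Abcb1a and Abcb1b are near copies. Of the 50-base stretches in the transcripts of Abcb1a, 16.3% also occur in those of Abcb1b, so reads from these stretches could be assigned to either gene or lost. The exons of Abcb1a also share 10.1% of their bases with Gm42686 on the opposite strand.

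Abcc2 was at 4287, 5738 and 9924 normalized counts in KO lean and at 7593, 8460 and 11873 in KO obese. The highest KO lean mouse exceeded 6 of the 7 obese mice, and without it the KO lean mice reached 5989, below every KO obese mouse. Its log2 fold change was 0.65 ± 0.17, or 1.57-fold, with an adjusted p of 0.0192. In WT mice the lean range of 5561 to 10484 and the obese range of 5491 to 11007 lay over each other (log2 fold change -0.01 ± 0.16, adjusted p = 0.980).

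Abcg2, the canalicular exporter of urate and drugs also called BCRP, was at 563 to 887 normalized counts in KO lean and 747 to 1056 in KO obese, with an overlap of the groups. Its log2 fold change of 0.40 ± 0.12 had an adjusted p of 0.0342.

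The exporters that set the main composition of bile did not pass the test with diet in either genotype. Abcb11 had medians of 7896 in WT lean and 7448 in WT obese normalized counts, with ranges of 6375 to 11677 and 4522 to 8399 (log2 fold change -0.35 ± 0.16, adjusted p = 0.250). In KO mice its medians were 7558 and 7727 and the groups overlapped almost wholly, with a log2 fold change of 0.00 ± 0.13. Abcb4, which moves phosphatidylcholine into bile, went from a median of 4233 to 4060 in WT (-0.25 ± 0.16) and from 4469 to 4573 in KO mice (0.10 ± 0.16).

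The sterol exporters Abcg5 and Abcg8 work as a heterodimer and lie head to head on chromosome 17, where their exons share 82 bases on opposite strands. Abcg5 had medians of 1770 in WT lean and 1438 in WT obese (log2 fold change -0.14 ± 0.14), and 1493 in KO lean and 1547 in KO obese (0.08 ± 0.14). For Abcg8 the medians were 2239 and 2228 in WT (-0.02 ± 0.20) and 1708 and 2309 in KO mice (0.27 ± 0.15, adjusted p = 0.215). For both genes lean and obese mice overlapped in each genotype.

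Among the 7 sinusoidal and other Abcc genes, Abcc6 and Abcc10 joined Abcc3 as higher in KO obese. Abcc6, a liver transporter whose loss leads to calcification of other tissues, was at 2220 to 3170 normalized counts in KO lean and 2806 to 3966 in KO obese (log2 fold change 0.28 ± 0.11, adjusted p = 0.0786). Abcc10, a broad drug exporter, was at 113 to 275 and 185 to 317 (0.46 ± 0.18, adjusted p = 0.0925). Both groups overlapped in each gene. The Abcc10 call was lost in 11 of 14 fits that left out 1 mouse and the Abcc6 call in 8 of 14. Abcc1, Abcc4 and Abcc5, exporters of conjugates, organic anions and cyclic nucleotides, did not pass and ranged from -0.34 to -0.05 in log2 fold change.

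The Abca6-like cluster is a row of related genes on chromosome 11, all on the minus strand, whose products are lipid transporters. In mm10 coordinates Abca8b lies at chr11:109932190-109995845, Abca8a at chr11:110025634-110095978, Abca9 at chr11:110100749-110168196, Abca6 at chr11:110176820-110251776 and Abca5 at chr11:110269369-110337716. In KO obese 3 of the 5 were higher, Abca5, Abca6 and Abca8b, where 12.0% of all genes were called higher, and the median log2 fold change of the 5 was 0.58. In WT obese 0 of 5 passed (0 also in edgeR and DESeq2), and their median was 0.06.

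Abca5 was at 98.9, 148.7 and 158.5 normalized counts in KO lean and at 208.4, 234.5 and 274.3 in KO obese. The 2 groups did not overlap. Its log2 fold change was 0.74 ± 0.12, or 1.67-fold, with the smallest adjusted p of the members in this comparison, 0.00322. In WT mice it was at 116.2, 148.4 and 182 in lean and 142.5, 184 and 251.3 in obese liver, with 4 of 7 obese mice above the lean range (0.35 ± 0.15, adjusted p = 0.211).

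Abca6 was at 2160 to 3548 normalized counts in KO lean and 2837 to 5372 in KO obese, with 6 of 7 obese mice above the lean range. Its log2 fold change of 0.58 ± 0.15 (adjusted p = 0.0186) fell just short of the 1.5-fold line. Abca8b was at 549 to 899 and 816 to 1218, with 5 of 7 obese mice above the lean range (0.48 ± 0.13, adjusted p = 0.0242).

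Abca8a did not pass with diet. It was at 566.5, 710.6 and 2284 normalized counts in KO lean and at 923.4, 1622 and 1891 in KO obese (0.65 ± 0.29, adjusted p = 0.141), and at 715.1, 2548 and 3002 in WT lean and 809.6, 1128 and 2262 in WT obese (-0.52 ± 0.34, adjusted p = 0.449). Lean and obese mice overlapped in both genotypes. Abca9 had log2 fold changes of 0.34 in WT and 0.28 in KO mice and passed in neither, though DESeq2 called it higher in KO obese.

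Promoters are shown for Abca5, Abca8a, Abca8b and Abca9 of this cluster, of which Abca5 did not overlap between KO lean and KO obese, and for Abcc2. That of Abca6 is not shown. The windows come from RefSeq on GRCm38 and run from 250 bases before to 50 bases after the start of the gene. A window was found for 32 of the 42 members. Both strands were searched for the hexamer AGGTCA bound by nuclear receptors, for the E-box written as CACGTG, for the element TATAAA, for the box named CCAAT, and for the core of the antioxidant response element, which reads TGACNNNGC. Matches are in capitals. In Abca8b the E-box and the antioxidant core overlap. Sequences are written 5′ to 3′ on the strand of the gene.
Abca5, chr11:110337667-110337966, minus strand: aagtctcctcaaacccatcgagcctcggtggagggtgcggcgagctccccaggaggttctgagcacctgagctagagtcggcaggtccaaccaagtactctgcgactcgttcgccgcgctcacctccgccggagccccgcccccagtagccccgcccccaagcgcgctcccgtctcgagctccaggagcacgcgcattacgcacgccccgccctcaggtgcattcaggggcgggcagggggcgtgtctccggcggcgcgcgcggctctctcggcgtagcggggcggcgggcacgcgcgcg
Abca8a, chr11:110095888-110096187, minus strand: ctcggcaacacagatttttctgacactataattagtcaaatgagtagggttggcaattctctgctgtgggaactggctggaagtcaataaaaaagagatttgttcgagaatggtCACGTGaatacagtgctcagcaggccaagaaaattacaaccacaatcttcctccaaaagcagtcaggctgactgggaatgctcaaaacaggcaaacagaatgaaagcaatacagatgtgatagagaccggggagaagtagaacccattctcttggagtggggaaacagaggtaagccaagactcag
Abca8b, chr11:109995796-109996095, minus strand: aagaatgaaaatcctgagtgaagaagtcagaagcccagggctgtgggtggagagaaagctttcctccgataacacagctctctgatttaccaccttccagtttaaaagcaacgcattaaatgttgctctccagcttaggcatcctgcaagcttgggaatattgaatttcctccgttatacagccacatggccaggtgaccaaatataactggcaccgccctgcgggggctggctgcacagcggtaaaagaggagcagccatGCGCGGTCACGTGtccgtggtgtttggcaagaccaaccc
Abca9, chr11:110168104-110168403, minus strand: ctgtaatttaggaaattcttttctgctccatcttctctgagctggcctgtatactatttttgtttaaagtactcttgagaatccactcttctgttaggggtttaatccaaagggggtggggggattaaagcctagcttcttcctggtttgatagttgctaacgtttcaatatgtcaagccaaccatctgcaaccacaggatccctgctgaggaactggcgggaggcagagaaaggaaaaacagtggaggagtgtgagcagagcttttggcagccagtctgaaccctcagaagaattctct
Abcc2, chr19:43782058-43782357, plus strand: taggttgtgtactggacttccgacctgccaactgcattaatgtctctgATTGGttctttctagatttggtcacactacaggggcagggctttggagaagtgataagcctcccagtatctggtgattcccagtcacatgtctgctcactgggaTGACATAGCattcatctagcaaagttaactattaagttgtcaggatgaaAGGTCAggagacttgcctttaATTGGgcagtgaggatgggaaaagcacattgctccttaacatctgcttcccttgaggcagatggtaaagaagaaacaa

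The promoter of Abca5 was rich in G and C (72.3%) with 40 CG pairs, whereas those of Abca8a (44.3%, 4 CG pairs), Abca9 (45.3%, 2) and Abcc2 (45.0%, 1) were not, and Abca8b lay between them (51.3%, 10). Abca8a and Abca8b each held CACGTG, which was in 7.15% of all 32851 windows of this length. Abcc2 held AGGTCA, present in 16.3% of all windows, and TGACNNNGC, present in 12.4%. It also held CCAAT at 2 places, read as ATTGG on the strand shown. The windows of Abca5 and Abca9 held none of the 5 motifs. TATAAA was in 13.6% and CCAAT in 37.4% of all windows. These matches describe letters and not binding.

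Of the 6 sterol and phospholipid transporters 5 were tested. With diet 0 passed in either genotype by limma or edgeR, while DESeq2 called Abca1 higher in KO obese. Abca1 was at 5055, 6791 and 8218 normalized counts in WT lean and 3648, 6012 and 11381 in WT obese (-0.14 ± 0.22, adjusted p = 0.785). In KO mice it was at 3111, 7002 and 7928 in lean and 6327, 7950 and 11970 in obese liver (0.47 ± 0.20, adjusted p = 0.121). The WT groups overlapped fully, and 4 of 7 KO obese mice lay above the KO lean range.

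Abcg1, which passes cholesterol to high density lipoprotein, had medians of 139 and 116 in WT lean and WT obese (-0.23 ± 0.19) and 159 and 136 in KO lean and KO obese (-0.16 ± 0.14). Abca3, known for packing surfactant lipids in lung, went from a median of 840 to 734 in WT (-0.22 ± 0.19) and from 568 to 898 in KO mice (0.46 ± 0.21, adjusted p = 0.141). Abca2 and Abca7, lipid transporters best known from brain, had log2 fold changes of -0.28 and -0.13 in WT and 0.16 and -0.15 in KO mice.

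The peroxisomal importers did not pass with diet (0 of 3 by limma in either genotype, with Abcd3 called lower in WT obese by DESeq2). Abcd3 was at 6930, 10031 and 14230 normalized counts in WT lean and 7129, 8000 and 10042 in WT obese (-0.41 ± 0.15, adjusted p = 0.147). In KO mice its medians were 10645 and 10472 (-0.19 ± 0.15). Abcd2 ranged widely within every group, from 228 to 1074 in WT lean, 198 to 1158 in WT obese, 331 to 911 in KO lean and 205 to 1265 in KO obese, and groups overlapped.

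Abcd4, which releases cobalamin from lysosomes, was the call of the mitochondrial and lysosomal group. It was at 120.5, 214.7 and 248.9 normalized counts in WT lean and 219, 317.6 and 509 in WT obese, with 6 of 7 obese mice above the lean range. The log2 fold change was 0.69 ± 0.20, or 1.61-fold, with an adjusted p of 0.0697. Without WT lean replicate 1, the mouse at 120.5, this call was lost, and it was lost too without WT lean replicate 4 or WT obese replicates 2, 3, 5 or 6 (adjusted p up to 0.132). In KO mice it was at 231, 282 and 328 in lean and 271, 327 and 500 in obese liver (0.34 ± 0.15, adjusted p = 0.127), and edgeR and DESeq2 called it higher there.

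The mitochondrial Abcb8 and Abcb10, the porphyrin-linked Abcb6 and the lysosomal peptide transporter Abcb9 passed in neither genotype, with log2 fold changes of 0.05 to 0.49 in WT and -0.23 to 0.09 in KO mice. For Abcb6, 55.2% of its exon bases are shared with the same-strand gene Gm29253, so its count is uncertain. Of the cytosolic members, Abcf1 was higher in KO obese, at 571 to 1087 against 818 to 1106 normalized counts (0.35 ± 0.13, adjusted p = 0.0698), a call lost in 6 of 14 fits without 1 mouse. The ribosome recycling factor Abce1, Abcf2 and Abcf3 lay between -0.13 and 0.07 in both genotypes.

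Abcc9, a sulfonylurea receptor and subunit of potassium channels, had -0.43 in WT obese (unadjusted p under 0.05, not past the adjusted threshold) and -0.09 in KO obese. Abcg3 and Abca14, the remaining members, did not pass.

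**Figure D3:**
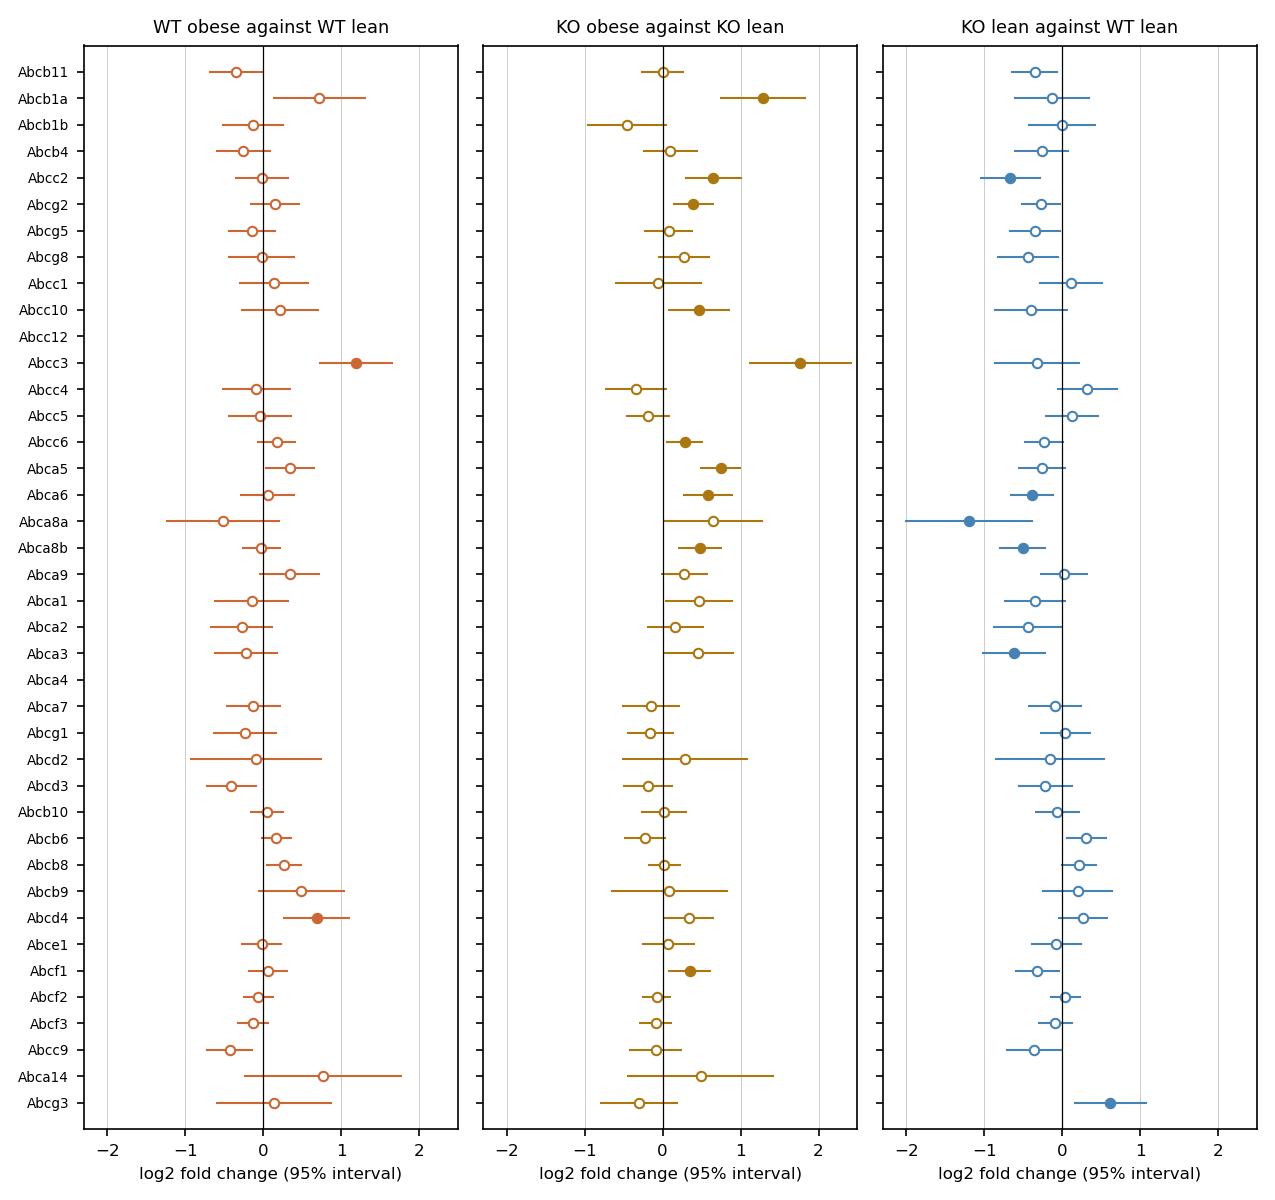
Log2 fold change with its 95% interval for 40 members, ordered by role, for WT obese vs WT lean, KO obese vs KO lean and KO lean vs WT lean (7 mice per group); filled points passed the adjusted threshold of 0.1. Filled points number 2 to the right in WT obese, 10 to the right in KO obese, and 5 to the left and 1 to the right in KO lean, and Abcc3 lies farthest right with diet.

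In KO obese liver the transcript levels of cell type markers also differed. Over all genes 12.1% were called lower and 12.0% higher in KO obese, and 2.61% lower and 3.65% higher in WT obese. Of 5 Kupffer cell markers tested 4 were lower, and the summed level of the listed markers went from 6173 to 14150 normalized counts in KO lean down to 3533 to 4660 in KO obese. Sinusoidal endothelial markers were lower in 4 of 6 cases, with summed levels of 3468 to 5842 and 2428 to 4477. Of 6 hepatocyte markers 1, Cyp2e1, was higher. In WT obese 0 markers of these 3 lists passed. The part of these changes in the members' values was not tested. The sixth Kupffer cell marker, Adgre1, was not analysed here. The stellate cell marker Des (1 of 6) and the lymphocyte marker Cd79a were also lower in KO obese. Cfd, a gene of adipocytes and the only 1 of 4 adipocyte markers tested, was higher in both obese groups. With diet 0 of 5 cholangiocyte markers passed, and of 5 erythroid markers 1 was tested and did not pass.

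The scale mattered for the count in KO mice. With libraries brought to equal read totals, the median over all genes moved to 0.14 on the log2 scale, 2555 genes were called higher and 628 lower in place of 1704 and 1718, and 16 members were higher. The members' median was then 0.33. When mice whose names open with the same number were treated as a block, 6 members stayed higher, Abca5, Abca6, Abca8b, Abcb1a, Abcc2 and Abcc3. Over all genes 500 were then called higher and 557 lower.

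In a fit of diet by genotype over 4 groups 0 of 40 members passed, against 0.00717% of all genes. At an unadjusted p under 0.05 there were 7, Abca8b, Abcc2, Abcb6, Abca8a, Abca6, Abca3 and Abca5 (17.5%, against 18.3% of all genes), and DESeq2 called 2 members (5.00%, against 6.67% of all genes). The difference of the diet effects (KO minus WT) was 0.50 for Abca8b (95% interval 0.15 to 0.85, adjusted p = 0.147) and 0.66 for Abcc2 (0.18 to 1.14, adjusted p = 0.154). A diet effect that differed between genotypes was therefore not shown for any member by limma.

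KO lean and WT lean liver were compared to see what loss of ChemR23 did without obesity. These KO lean mice are the same animals as in the KO diet comparison, and these WT lean mice the same as in the WT diet comparison, so the comparisons are not independent. Of 39 members tested 5 were lower in KO lean (12.8%), Abcc2, Abca8a, Abca8b, Abca6 and Abca3, and 1 was higher (2.56%), Abcg3. Over all 13031 genes 8.30% were called lower and 8.00% higher. With the fold change above 1.5, Abca8a, Abcc2 and Abca3 were lower (7.69%) and Abcg3 higher, against 2.70% lower and 3.94% higher over all genes. The members' median log2 fold change was -0.15 and that of all genes 0.00.

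Abcc2 was at 5784, 8098 and 10875 normalized counts in WT lean and 3891, 5211 and 9041 in KO lean. In 6 of 7 KO mice it lay below every WT mouse, and the remaining mouse was within the WT range. The log2 fold change was -0.66 ± 0.18 with an adjusted p of 0.0460.

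Abca8a was at 744, 2656 and 3113 normalized counts in WT lean and 514, 644 and 2081 in KO lean. The WT lean mice were split, with 5 at 1770 or more and 2 at 874 or less, and KO lean mice lay at 742.5 or less except for 2 at 1450 and 2081. Its log2 fold change was -1.20 ± 0.38 with an adjusted p of 0.0653. The neighbouring Abca8b was at 739 to 1137 in WT lean and 499 to 819 in KO lean (-0.51 ± 0.14, adjusted p = 0.0451), and 5 of 7 KO mice lay below the WT range. Abca6 was at 2801 to 3859 and 1959 to 3232 (-0.38 ± 0.13, adjusted p = 0.0717). Abca9, between them on the chromosome, had 0.03.

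Abca3 was at 537, 873 and 1029 normalized counts in WT lean and 332, 516 and 757 in KO lean, with 4 of 7 KO mice below the WT range (-0.62 ± 0.19, adjusted p = 0.0574). Its exons share 9.75% of their bases with D330041H03Rik on the opposite strand. Abcg3, a rodent relative of Abcg2, was at 21.9, 44.9 and 60.5 in WT lean and 44.4, 58.6 and 79.4 in KO lean, with 3 of 7 KO mice above the WT range (0.62 ± 0.21, adjusted p = 0.0803). The Abcg3 call was lost under 5 of the 10 alternatives, namely equal read totals, edgeR, the block, the length and GC correction and an adjusted p under 0.05, where its adjusted p reached up to 0.196.

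**Figure D4:**
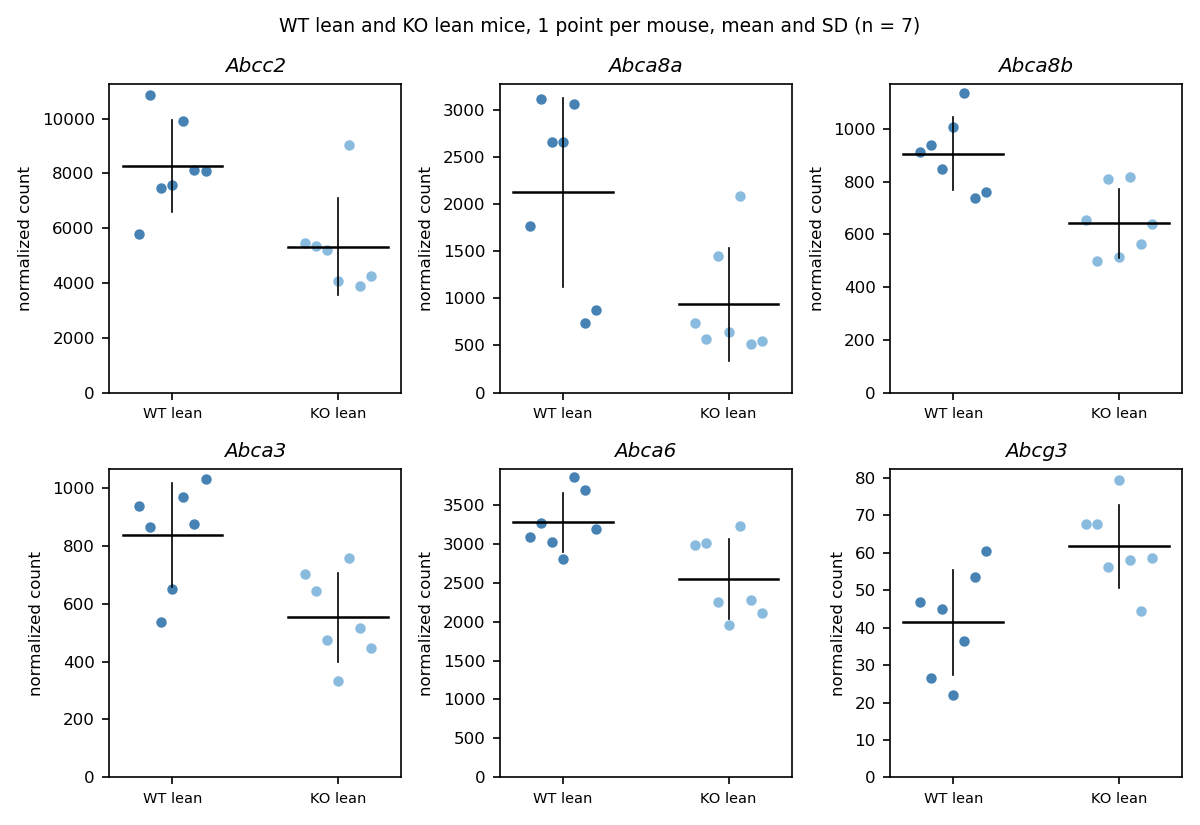
Normalized counts of Abcc2, Abca8a, Abca8b, Abca3, Abca6 and Abcg3 in WT lean and KO lean mice, with 1 point per mouse and the mean and SD (n = 7). KO lean points lie mostly below WT lean points in the first 5 genes and above them in Abcg3. KO lean replicate 5 is high for Abcc2 (9041) and Abca8a (2081). It is also the highest KO lean mouse for Abca8b, Abca3 and Abca6.

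Other exporters had values in the same table without passing. Abcb11 had medians of 8160 in WT lean and 6869 in KO lean (-0.35 ± 0.14, adjusted p = 0.116), Abcg5 1849 and 1356 (-0.34 ± 0.15, adjusted p = 0.157) and Abcg8 2329 and 1553 (-0.44 ± 0.18, adjusted p = 0.134). Abcb4 had -0.26 ± 0.16 and Abca1 -0.34 ± 0.18. For each of these 5 genes the groups overlapped, and DESeq2 called Abcb11 lower. Abcc3, Abcb1a, Abcg1, Abcd2, Abcd3 and Abcd4 had log2 fold changes of -0.32, -0.13, 0.04, -0.15, -0.21 and 0.27 and none passed (unadjusted p of 0.0879 or more).

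Single mice and the block changed the counts in the lean genotype comparison, for members and for all genes. When that number in the mouse name was the block, 0 members were called, and 3 genes in all in place of 2123. KO lean replicate 5 was the highest KO lean mouse for Abcc2, Abca8a, Abca8b, Abca3 and Abca6. Leaving it out gave 11 lower members (28.2%), and the lower genes in all went from 1081 to 1839 (14.1%). Leaving out WT lean replicate 5 gave 0 lower members and 241 lower genes in all (1.85%). Without WT lean replicate 2 or KO lean replicate 6 there was 1 lower member, without KO lean replicate 4 there were 2 and without KO lean replicate 3 there were 3. The lower genes in all numbered 266, 268, 411 and 565 in these fits, in that order. Abca8b kept its call in 13 of 14 such fits, Abcc2 in 11, Abca3 in 9, Abca6 and Abca8a in 7 and Abcg3 in 5. With equal read totals the median of all genes moved to -0.12, with 392 genes higher and 1753 lower in place of 1042 and 1081, and 10 members were lower and 0 higher.

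Kupffer cell markers moved with genotype in lean liver as well, where 8.00% of all genes were called higher and 8.30% lower. All 5 Kupffer cell markers tested were higher in KO lean. The summed level of the list went from 2320 to 5490 normalized counts in WT lean up to 5624 to 12830 in KO lean, without overlap. Of 6 sinusoidal endothelial markers 1 was higher, 0 of 6 hepatocyte markers passed, and the cholangiocyte marker Krt19 (1 of 5) and the stellate cell marker Reln (1 of 6) were lower. Their part in the members' values was not tested.

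KO obese and WT obese liver were compared for the effect of genotype in obesity. Of 41 members tested 0 were called (0 also by edgeR and DESeq2), and 0.00706% of all genes were called in each direction. At an unadjusted p under 0.05 there were 0 members, against 2.25% of all genes. Log2 fold changes of the members ran from -0.32 (Abcb1b) to 0.91 (Abcc12, with few reads), with a median of 0.00. Abcc3 had medians of 3344 in WT obese and 4191 in KO obese (0.25 ± 0.28), Abcb1a 81.6 and 110 (0.44 ± 0.31) and Abcc2 8614 and 8238 (0.00 ± 0.14, 95% interval -0.30 to 0.31). In these genes, as in Abca8a at 1242 and 1561 (-0.03 ± 0.24), the groups overlapped.

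WT obese+RvE1 and WT obese liver were compared for the response to RvE1. Of 39 members 0 passed, as did 0% of all genes. Abcc3 was the only member with an unadjusted p under 0.05 in limma (0.00696), which is 2.56% of the members against 6.08% of all genes. DESeq2 gave 2 such members (5.13%, against 7.10% of all genes) and called 0, and edgeR called 0. Abcc3 was at 1669, 3567 and 5696 normalized counts in WT obese and 4485, 5195 and 5588 in WT obese+RvE1. The treated mice thus lay in the upper part of the vehicle range and above its median. The log2 fold change was 0.59 (95% interval 0.18 to 0.99) with an adjusted p of 0.772.

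Abcd2 was at 234, 543 and 1367 in WT obese and 720, 838 and 1171 in WT obese+RvE1 (0.65, 95% interval -0.04 to 1.33). The treated range lay inside the vehicle range. Abcb11, Abcb4, Abcg5 and Abcg8 had log2 fold changes of 0.11, 0.10, -0.11 and 0.07. The members' median was -0.07 and that of all genes 0.00.

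KO obese+RvE1 and KO obese liver gave the same comparison without the receptor. Of 41 members 0 passed, again with 0% of all genes, and edgeR and DESeq2 called 0 members. At an unadjusted p under 0.05 there were 3 (7.32%, against 8.30% of all genes), all lower, among them Abca8a and Abca1. Abca8a was at 933.5, 1637 and 1906 normalized counts in KO obese and 467.5, 828.3 and 1432 in KO obese+RvE1, and 5 of 7 treated mice lay below the vehicle range (-0.75, 95% interval -1.25 to -0.26, adjusted p = 0.557).

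Abca1 was at 6448, 8020 and 12064 in KO obese and 3463, 5914 and 9919 in KO obese+RvE1, with 6 of 7 treated mice below the vehicle range (-0.60, 95% interval -1.04 to -0.15, adjusted p = 0.557). Abcc3 had medians of 4390 and 4544 (0.16 ± 0.31) and Abcc2 of 8621 and 6803 (-0.22 ± 0.20), and groups overlapped.

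The response to RvE1 was also compared between genotypes. Of 39 members 0 passed, with 0% of all genes called, and DESeq2 called 0 members. At an unadjusted p under 0.05 there were 0 members, against 2.39% of all genes. For Abcc3 the difference of the RvE1 effects (KO minus WT) was -0.43 (95% interval -1.22 to 0.37), and for Abca8a it was -0.37 (-1.06 to 0.32). Both intervals span 0 and also take in differences above 1.5-fold.

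**Figure D5:**
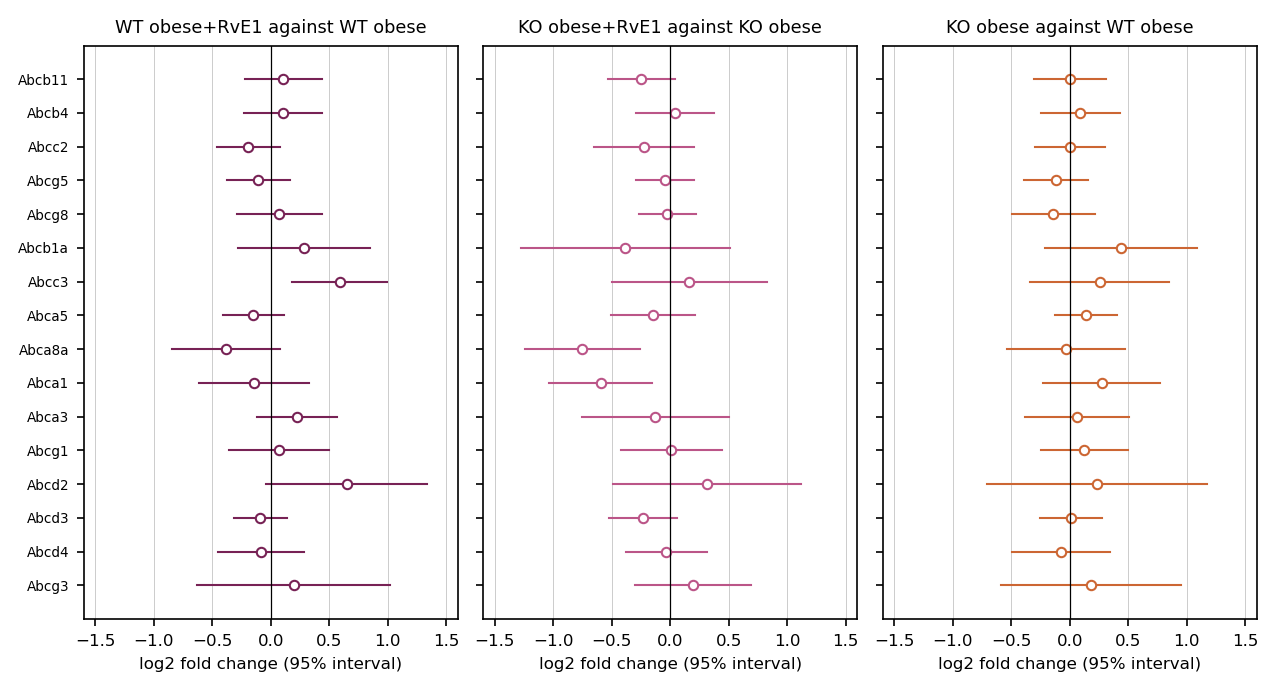
Log2 fold change with its 95% interval for 16 members in WT obese+RvE1 vs WT obese, KO obese+RvE1 vs KO obese and KO obese vs WT obese (7 mice per group); all points are open, since none passed the adjusted threshold of 0.1. The intervals of Abcc3 in the first panel and of Abca8a and Abca1 in the second leave out 0.

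Genes that work beside the ABC transporters were followed in lists. Over all genes 3.65% were called higher and 2.61% lower in WT obese, and 12.0% higher and 12.1% lower in KO obese. In KO lean against WT lean these shares were 8.00% and 8.30%. Of 12 nuclear receptors and factors known to control hepatic ABC genes, 1 was higher in WT obese and 3 were higher and 1 lower in KO obese. Nr1i3, the xenobiotic receptor CAR, was higher in both, at 1021 to 2704 against 1372 to 5758 normalized counts in WT (0.94 ± 0.29, adjusted p = 0.0912) and at 2263 to 3178 against 3570 to 5007 in KO mice, without overlap (0.60 ± 0.10, adjusted p = 0.00388). In KO obese the bile acid receptor Nr1h4 (0.32, adjusted p = 0.0644) and the oxidative stress factor Nfe2l2 (0.27, adjusted p = 0.0881) were also higher and Nr1h2, a sterol receptor, was lower (-0.35, adjusted p = 0.0259).

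Of the hepatocyte uptake carriers and membrane partners, 1 of 11 tested was higher in WT obese and 3 of 12 in KO obese, against 3.65% and 12.0% of all genes. Slc47a1, an exporter of organic cations, was higher in both without overlap (0.83 ± 0.14, adjusted p = 0.00348 in WT, and 0.73 ± 0.13, adjusted p = 0.00385 in KO mice), and Atp7b and Slco2b1 were higher in KO obese.

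Of 8 sterol acceptors and traffic genes, 2 were lower in WT obese, Pltp (-1.55 ± 0.33, adjusted p = 0.0171) and Npc2 (-0.32, adjusted p = 0.0858). Both were lower in KO obese too (Pltp -0.93, Npc2 -0.50), with Scarb1 as the third. Of all genes 2.61% were lower in WT obese and 12.1% in KO obese. Of 9 peroxisomal genes, Ehhadh, an enzyme of peroxisomal beta oxidation, was lower in both without overlap (-1.48 ± 0.24 in WT and -1.81 ± 0.38 in KO mice), Crot and Pex19 were lower in KO obese, and Pex19 and Acaa1a were higher in KO lean than in WT lean. Of 8 genes of mitochondrial haem and iron, 1 was higher and 2 lower in KO obese (12.0% and 12.1% of all genes) and 0 passed in WT obese. Tap2 (0.31, adjusted p = 0.0982) was higher in KO obese among the 2 tested ABC genes that are named otherwise. With RvE1, and with genotype in obese liver, 0 genes of these 6 lists passed. Of all genes 0% passed with RvE1 and 0.00706% in each direction with genotype in obese liver.

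Over all 6 comparisons 14 members were called at least once by limma in the main settings, which is 34.1% of the 41 members tested in any, against 32.6% of all 14414 genes tested in any. The other 28 members were not called there, although other settings called some of them. Among the 28 were Abca1, Abca2, Abca4, Abca7, Abca9, Abca14, Abcb1b, Abcb4, Abcb6, Abcb8, Abcb9, Abcb10, Abcb11, Abcc1, Abcc4, Abcc5, Abcc9, Abcc12, Abcd2, Abcd3, Abce1, Abcf2, Abcf3, Abcg1, Abcg5 and Abcg8. Of the 18 calls, 7 held under all 10 alternative settings and without any single mouse: Abcc3 in both diet comparisons, and Abca5, Abca6, Abca8b, Abcb1a and Abcc2 in KO obese.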

How the data were processed

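Whole livers of 42 mice in 6 groups of 7 were profiled by bulk RNA-seq. The authors used Bowtie2 with mm10 for alignment and featureCounts for gene counts, and ran DESeq2 on 2 groups at a time. The deposited signal values are counts divided by DESeq2 size factors, set by the authors within each of 6 tables. The deposited log2 fold changes, their SEs, p-values and adjusted p-values are the authors' own comparisons and were not used. For tool versions, annotation and the strand setting of counting: not given in the sources used here. Whole reads could be recovered for 100% of values within a tolerance of 0.1.

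Here log2(normalized count + 1) of genes with a mean of at least 5 was fitted with limma 3.58.1 in R 4.3.3 (moderated test with a trend, 2-sided), with Benjamini-Hochberg adjustment over all genes tested. Fold changes on this scale understate the change of genes with few reads. Both interactions were fitted over 28 libraries. All p-values given for genes come from these limma fits and measure the spread between mice, with the mice of a group taken as independent. The recovered reads were also tested with edgeR 4.0.16 and DESeq2 1.42.0. In all, 10 alternatives and fits without each mouse were run. The fits were tested on simulated data with a 2-fold change set in 200 genes. Of these, 71% to 86% were called in the comparisons of 2 groups. In the fits of diet and of RvE1 by genotype 55% and 56.5% were called, so many such changes would be missed there. Changes under 2-fold were not simulated, and the simulated libraries were independent, so these shares do not apply to smaller changes.

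The members and lists were chosen with earlier results of these data known. Lowest, median and highest values were given for members past the threshold with a fold change above 1.5 in any comparison, and for Abcb11, Abcb4, Abcc2, Abcg5, Abcg8, Abcc3, Abca1, Abcg1, Abcd2, Abcd3 and Abcb1a whatever their result, and other members by counts and ranges. Positions and exon lengths are from GENCODE M21. Depth limits Abca4, Abca14 and Abcc12, which had few reads. Some genes, 2 members among them, are not reported here.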

Additional observations from a re-analysis of the deposited data

Results flagged for a closer look

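Among 16 named members, 96 groups of 7 mice were tested with Dixon's ratio, and 15 held a mouse far from the others by the critical value at the 95% level. Chance alone flags about 1 in 20 groups when values are normal and groups independent. The 96 groups hold the same mice for several genes, so the 15 cannot be judged against that rate. In the WT obese+RvE1 group, replicate 3 was the highest mouse for 4 genes: Abca1 (9374 normalized counts, the others 5561 to 6467), Abca8a (1719, the others 834.6 to 1172), Abcg5 (2126, the others 1504 to 1738) and Abcg8 (3620, the others 2388 to 2891). Replicate 4 of that group was highest for Abca5, at 236.9 against 181 to 202.

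In KO obese+RvE1, replicate 6 was the highest mouse for Abca1 (9919, the others 3463 to 6157), Abcg5 (2214, the others 1297 to 1691), Abcg8 (3098, the others 1804 to 2255) and the peroxisomal Abcd3 (10747, the others 6905 to 8405). Replicate 7 was highest for Abcg3 at 90.06, with the others at 55.59 to 67.18, and replicate 2 was lowest for Abcb11 at 4235, with the others at 6357 to 7913.

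For Abcc2, KO lean replicate 5 stood at 9924 (the others 4287 to 5989) and KO obese replicate 7 at 11873 (the others 7593 to 9388). In WT lean, replicate 6 was highest for Abcb4 at 6016 (the others 3855 to 4772) and replicate 1 lowest for Abcd4 at 120.5 (the others 201.3 to 248.9).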

How the results depend on the processing

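Of the 18 calls of members, 0 reversed, and 7 held under all 10 alternatives and without any single mouse. In WT obese, 1 member was higher with the mouse number as a block and 1 at an adjusted p under 0.05, and DESeq2 called 2 lower and the correction for gene length and GC content 1. Over all genes the block called 162 and the stricter threshold 260 higher, and DESeq2 called 610 and the correction 431 lower. In KO obese, equal read totals gave 16 higher members (11 with the fold change, against 4), DESeq2 gave 14, no filter on low counts gave 11 with Abcc12 added, and the block gave 6, and the length and GC correction gave 2 lower (Abcb1b and Abcc5). Of all genes 18.0% were higher with equal read totals and 13.6% with DESeq2, against 40.0% and 35.0% of the members. Without the filter 1673 genes in all were higher, with the block 500, and with the length and GC correction 1606 were lower. In KO lean against WT lean, higher members numbered 0 with equal read totals, with the block or at an adjusted p under 0.05, 2 with DESeq2 (Abcg3 and Abcb6) and 2 with the length and GC correction (Abcb6 and Abcd4, without Abcg3), while lower members numbered 10 with equal read totals, 0 with the block and 2 at an adjusted p under 0.05. Of all genes 10.2% were higher with DESeq2, against 5.13% of the members. With equal read totals 13.5% of all genes and 25.6% of the members were lower. Over all 13031 genes the length and GC correction called 919 higher. The stricter threshold called 392 higher and 326 lower, and the block called 2 higher and 1 lower. DESeq2 called 2 members in the diet by genotype fit, where limma called 0. For these changes of count the cause was not tested.

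Leaving out each mouse in turn gave 1 to 3 higher and 0 to 1 lower members in WT obese, 7 to 13 higher and 0 to 1 lower in KO obese, and 0 to 3 higher and 0 to 11 lower in KO lean. Counts over all genes moved as well, with 306 to 705 higher and 216 to 585 lower in WT obese. They were 1072 to 2241 higher and 1136 to 2262 lower in KO obese, and 331 to 1701 higher and 241 to 1839 lower in KO lean. The single mouse behind the upper end in KO lean was replicate 5 (11 lower and 3 higher without it), and without WT lean replicate 5 there were 0 of each.

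Over all genes, DESeq2 called 1367 in WT obese against 878 by limma, 25 and 17 with RvE1 in WT and KO mice against 0 and 0, and 930 in the diet by genotype fit against 1. The block called 279 in WT obese, 1057 in KO obese and 3 in KO lean, against 878, 3422 and 2123, and equal read totals called 510 in WT obese. What the number in a mouse's name marks is not stated in the labels.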

Other observations

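In the table of KO obese against WT obese liver, 8 further ABC genes were listed that the KO diet table did not hold, Abca12, Abca13, Abca15, Abca16, Abca17, Abcb5, Abcc8 and Abcg4. None exceeded 4.01 normalized counts in any mouse, the highest value being that of Abca17 in KO obese, and none reached the mean needed for a test.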
